A study of Mus musculus with 42 samples.

Results

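The bitter taste receptor genes of the mouse were taken as the protein-coding genes of the GENCODE vM21 annotation (mm10, GRCm38.p6) whose symbol starts with Tas2r. The symbol selected 35 genes of the 21938 protein-coding genes on the nuclear chromosomes. A further 5 Tas2r genes are annotated as pseudogenes and were kept apart. The genes were set against lamina-associated domains (LADs), the long stretches of chromatin bound by the nuclear lamina, which had been called from chromatin immunoprecipitation and sequencing (ChIP-seq) of lamin B1 (LMNB1). A gene was ascribed to a LAD when its start site lay inside a LAD of that library.

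Livers came from wild-type C57Bl/6 mice, whose sex is female in the sample labels and male in the growth protocol. Mice were held in light and dark of equal length, had no chow for 24 h and were fed again from CT0, when the lights came on. Non-synchronized mice (NS) were taken at noon on the day before food was withdrawn, and the others at CT0, CT6, CT12, CT18, CT24 or CT30, where CT is circadian time in hours. Each of these 7 groups holds 2 mice with a LMNB1 library (polyclonal rabbit antibody), giving 14 libraries. Whole pieces of liver were used, so the LADs are those of a mixture in which hepatocytes are the main cells. LADs have no expression value that could check the tissue. Of 12 hepatocyte genes listed, 11 were found by symbol and 0 of these lay in a LAD in any library, but 83.3% of all genes were in no LAD either, so the count is no check of the tissue. The libraries held 86 to 341 LADs over 335 to 663 Mb. The files give the start and end of each LAD and no read count, so the depth behind a LAD is unknown and the error of a value is the spread between mice.

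Bitter taste receptors are G protein-coupled receptors of taste cells in the tongue and palate and of some chemosensory cells in airway and gut. They signal through the G protein subunit gustducin (Gnat3), phospholipase C (Plcb2), the calcium release channel Itpr3 and the cation channel Trpm5. Nearly all Tas2r genes are short, with a coding sequence in a single exon, and in rodents many arose by duplication side by side. LADs are in general poor in G and C and rich in genes that are silent in the tissue.

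The 35 genes lie at 6 loci when start sites under 1 Mb apart are joined. On chromosome 6 there are 33 genes. The distal cluster holds 24 of them, from Tas2r130 to Tas2r140, at chr6:131629823-133055816. A cluster of 5 genes, from Tas2r139 to Tas2r126, spans chr6:42140936-42435464, and one of 3 genes, Tas2r137, Tas2r108 and Tas2r138, spans chr6:40491233-40613310. Tas2r118 stands alone on chromosome 6 (chr6:23969161-23970060), Tas2r134 on chromosome 2 (chr2:51627511-51628408) and Tas2r119 on chromosome 15 (chr15:32177289-32178294).

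Promoters, from 250 bases before to 50 bases after the start site, were read from RefSeq sequence of GRCm38.p6 for 31 of the 35 genes. Tas2r121, Tas2r136, Tas2r117 and Tas2r116 had no entry. A set of 6 is printed for genes that differ in LAD state. Tas2r105 and Tas2r107 belong to the first group of receptors in the distal cluster, and Tas2r103 lies near its end. Tas2r139 and Tas2r144 are neighbours on either side of a LAD border, and Tas2r118 is the isolated gene of chromosome 6. Capitals mark matches to the octamer ATTTGCAT (reverse complement ATGCAAAT), which POU factors such as POU2F3 of taste cells bind, and to GAGAG (reverse complement CTCTC).
Tas2r105 (in LADs in 12 libraries; chr6:131687414-131687713, minus strand): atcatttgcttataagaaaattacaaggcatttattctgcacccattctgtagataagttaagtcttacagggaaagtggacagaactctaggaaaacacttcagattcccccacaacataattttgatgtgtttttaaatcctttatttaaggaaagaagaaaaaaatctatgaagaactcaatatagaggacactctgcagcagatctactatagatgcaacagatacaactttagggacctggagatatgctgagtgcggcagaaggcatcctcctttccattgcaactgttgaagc
Tas2r107 (in LADs in 12 libraries; chr6:131660100-131660399, minus strand): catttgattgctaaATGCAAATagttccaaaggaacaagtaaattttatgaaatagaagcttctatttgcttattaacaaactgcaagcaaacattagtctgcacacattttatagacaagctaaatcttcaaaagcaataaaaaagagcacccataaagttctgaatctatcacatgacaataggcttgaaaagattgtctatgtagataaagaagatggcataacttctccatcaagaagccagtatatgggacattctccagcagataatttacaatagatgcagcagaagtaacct
Tas2r103 (in LADs in 8 libraries; chr6:133037052-133037351, minus strand): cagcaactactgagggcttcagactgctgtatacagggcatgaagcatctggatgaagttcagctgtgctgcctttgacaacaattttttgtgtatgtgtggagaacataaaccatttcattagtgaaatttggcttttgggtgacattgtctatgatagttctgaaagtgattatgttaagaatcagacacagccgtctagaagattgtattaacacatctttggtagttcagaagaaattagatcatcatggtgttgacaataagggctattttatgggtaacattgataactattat
Tas2r139 (in LADs in 2 libraries; chr6:42140686-42140985, plus strand): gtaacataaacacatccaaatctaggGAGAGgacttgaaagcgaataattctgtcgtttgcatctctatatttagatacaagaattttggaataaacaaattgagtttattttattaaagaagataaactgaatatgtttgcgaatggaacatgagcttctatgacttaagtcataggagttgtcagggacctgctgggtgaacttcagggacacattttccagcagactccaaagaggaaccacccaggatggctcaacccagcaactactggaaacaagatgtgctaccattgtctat
Tas2r144 (in LADs in 0 libraries; chr6:42215078-42215377, plus strand): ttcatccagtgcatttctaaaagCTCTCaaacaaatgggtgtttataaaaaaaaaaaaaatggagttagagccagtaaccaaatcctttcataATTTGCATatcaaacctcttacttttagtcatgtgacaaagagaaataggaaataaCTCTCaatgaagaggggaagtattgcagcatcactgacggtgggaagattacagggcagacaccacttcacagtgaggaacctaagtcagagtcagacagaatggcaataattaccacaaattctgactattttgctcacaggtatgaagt
Tas2r118 (in LADs in 0 libraries; chr6:23970011-23970310, minus strand): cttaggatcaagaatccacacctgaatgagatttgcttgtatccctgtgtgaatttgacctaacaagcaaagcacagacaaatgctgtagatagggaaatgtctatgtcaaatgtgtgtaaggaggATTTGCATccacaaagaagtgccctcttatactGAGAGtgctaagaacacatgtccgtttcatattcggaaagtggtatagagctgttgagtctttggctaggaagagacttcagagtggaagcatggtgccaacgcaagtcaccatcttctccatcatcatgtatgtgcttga

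The octamer was found on either strand in 7 of the 31 Tas2r promoters (22.6%) and in 1.74% of the 32851 RefSeq promoters of the same length. Of these 7 genes only Tas2r107 is in the distal cluster, and the other 6 (Tas2r118, Tas2r137, Tas2r108, Tas2r144, Tas2r135 and Tas2r126) are among the 11 genes outside it. GAGAG was found in 13 of 31 promoters (41.9%) and in 62.0% of all promoters, and the E-box CACGTG, the letters bound by the clock factors CLOCK and BMAL1, in 0 of 31 and in 7.15% of all. Matches to different motifs did not overlap (0 overlaps). These motifs were chosen after the sequences had been seen, and a match is no evidence of binding. The promoters of the distal cluster had a median G and C share of 34.2% (20 promoters) and a median of 1 CG dinucleotide. All RefSeq promoters had medians of 52.7% and 7, and the 5 promoters from Tas2r139 to Tas2r126 had medians of 44.3% and 1.

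Across libraries the receptor genes fell into a group that was in LADs in most mice and a group that was not. Of the 35 genes, 25 were in a LAD in at least 1 library, against 16.7% of all protein-coding genes, and 10 were in none, against 83.3%. The distal cluster supplied 24 of the 25, and Tas2r139 was the other. All 24 distal genes were in LADs in 8 or more libraries, which holds for 7.10% of all genes. None of the 35 was in a LAD in all 14 libraries, and 0.830% of all genes were. The map of LAD states by gene and library shows this division.

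**Figure D1:**
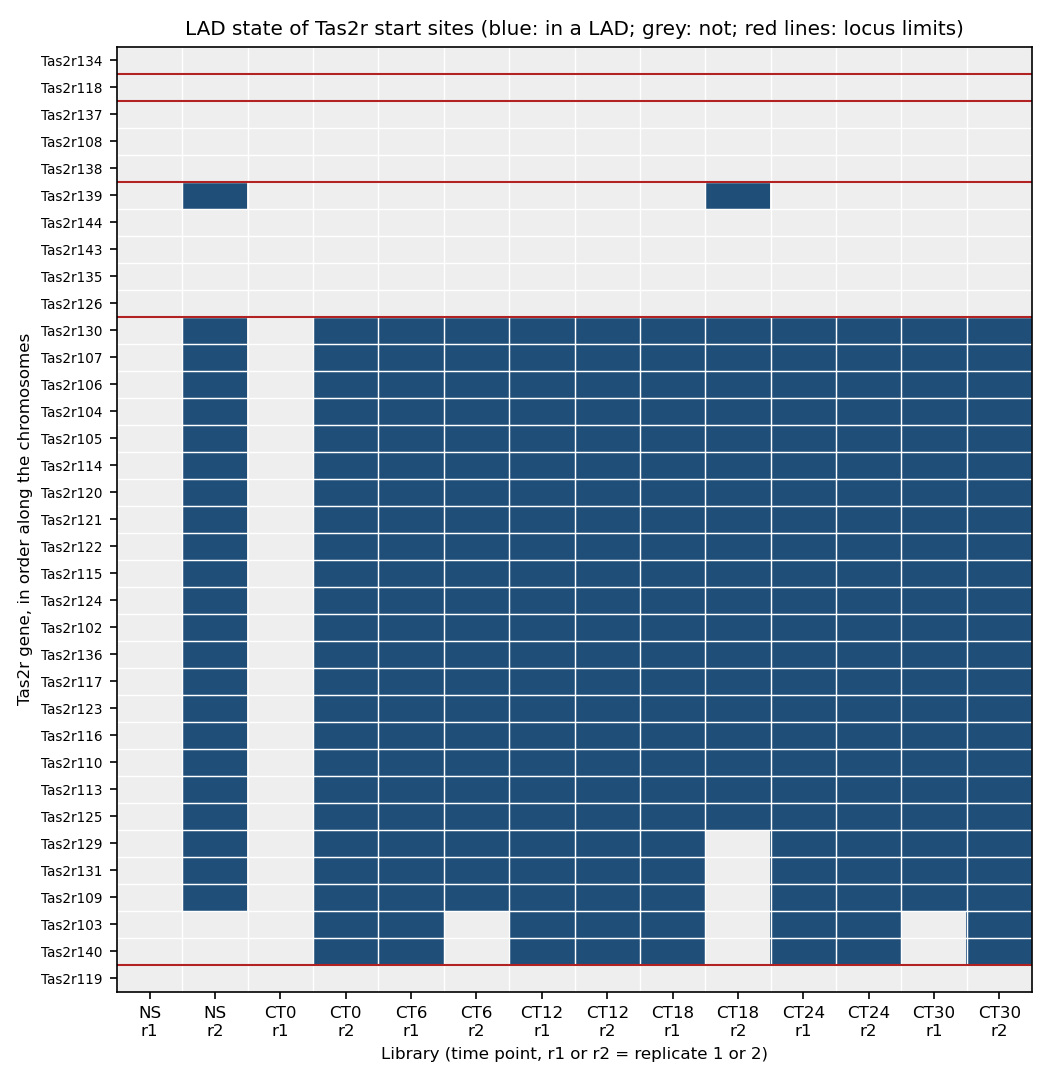
LAD state of each of the 35 Tas2r genes (rows, in chromosomal order, with red lines between the 6 loci) in each of the 14 libraries (columns, r1 and r2 for replicates 1 and 2), blue where the start site is in a LAD. The 24 genes from Tas2r130 to Tas2r140 are blue in most columns and grey throughout in NS replicate 1 and CT0 replicate 1, and Tas2r139 is the only other gene with blue cells.

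In the NS livers 0 Tas2r genes were in LADs in replicate 1 and 23 in replicate 2, when 4.02% and 7.97% of all genes were. At CT0 the numbers were 0 and 24, with 5.25% and 8.19% of all genes. The replicates of both groups thus gave opposite states, and the mean was 11.5 ± 16.3 genes at NS and 12.0 ± 17.0 at CT0 (SD, n = 2). At CT6, 24 and 22 Tas2r genes were in LADs (all genes, 6.92% and 9.89%). At CT12 both mice had 24 (8.10% and 9.43%), and at CT18 they had 24 and 20 (9.28% and 10.4%). From CT6 to CT18 the mice therefore lay close together, with 2 to 4 genes between replicates where they differed. At CT24 both mice had 24 genes in LADs (8.99% and 7.88%), and at CT30 they had 22 and 24 (6.16% and 5.58%). The plot of shares by library shows that 12 of 14 libraries had a far higher share of Tas2r genes than of all genes in LADs, and that 2 had a share of 0.

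**Figure D2:**
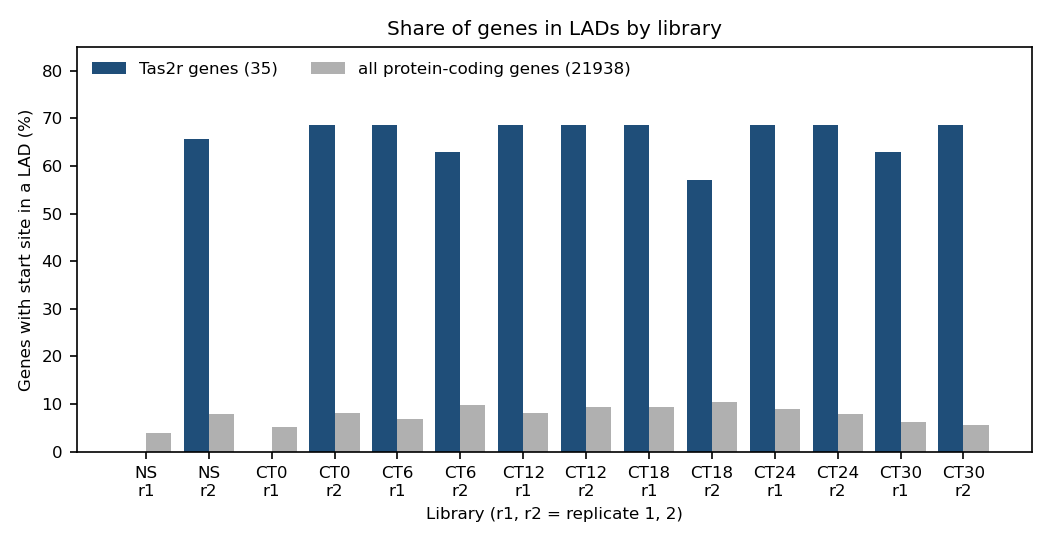
Percent of genes whose start site lies in a LAD, for the 35 Tas2r genes (blue bars) and all protein-coding genes (grey bars), in each library. The blue bars stand between 57.1% and 68.6% in 12 libraries and at 0 in NS replicate 1 and CT0 replicate 1, and the grey bars stand between 4.02% and 10.4%.

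Within a library, the share of Tas2r genes in LADs was above that of all genes by 49.2 ± 23.2 percentage points (SD, n = 14), with 12 libraries above 0 and 2 below. This difference is that of a single region rather than of 35 separate genes, since the distal genes share 1 LAD. Without NS replicate 1 and CT0 replicate 1 it was 58.2 points. On chromosome 6 the share of the 24 distal genes was above that of the 9 other genes by 80.9 ± 35.5 points (SD, n = 14), above 0 in 12 libraries and equal in 2. If clusters are joined only under 0.5 Mb, the distal genes part into 6 (Tas2r130 to Tas2r114) and 18 (Tas2r120 to Tas2r140), and the 18 exceeded all other Tas2r genes of chromosome 6 by 46.1 points, since the 6 were also in LADs. The 33 genes of chromosome 6 exceeded Tas2r134 and Tas2r119 by 60.4 ± 25.8 points (SD, n = 14). This is again the distal cluster, as the 9 other genes of chromosome 6 had at most 1 in LADs in any library. Tas2r134 and Tas2r119 lay in a LAD in 0 libraries, as did Tas2r118 and 83.3% of all protein-coding genes. These differences are given as descriptions with no p, because the genes and clusters were chosen with results of these libraries known.

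In the distal cluster the receptors fall into 2 groups along the chromosome, separated by 967 kb between the start sites of Tas2r114 and Tas2r120. The first group of 6 (Tas2r130, Tas2r107, Tas2r106, Tas2r104, Tas2r105 and Tas2r114) includes Tas2r105, the receptor through which mice taste cycloheximide. All 6 were in a LAD in the same 12 libraries. Of the 18 genes of the other group, the 13 from Tas2r120 to Tas2r125 were in LADs in these 12 libraries too. Tas2r129, Tas2r131 and Tas2r109 were in LADs in 11 libraries, all of the 12 except CT18 replicate 2. Tas2r103 and Tas2r140, the last of the cluster, were in LADs in 8, being outside also in NS replicate 2, CT6 replicate 2, CT18 replicate 2 and CT30 replicate 1. As called, differences among the 24 genes thus ran in order along the chromosome, with the genes nearest the 3′ end of the cluster in LADs in the fewest libraries. The pattern of the 19 genes, in a LAD in all libraries but NS replicate 1 and CT0 replicate 1, was shared by 91 genes of the genome, or 0.415%. Besides the 19 receptors these were 8 other genes of the same LAD region, 1 gene elsewhere on chromosome 6 and 63 genes on 4 other chromosomes. The pseudogenes Tas2r145-ps3, Tas2r111-ps2, Tas2r142-ps5 and Tas2r146-ps1 were in LADs in 12 libraries, and Tas2r141-ps4, which lies beyond Tas2r140, in 8.

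The LAD over the distal cluster was in most mice far longer than the cluster of 1.43 Mb. In NS replicate 2 it ran over chr6:129580001-133036000, and in CT0 replicate 2 over chr6:129580001-133712000. At CT6 it ran over chr6:129605001-133700000 in replicate 1 and chr6:129591001-133034000 in replicate 2. These 4 LADs started within 25 kb of each other. At CT12 the intervals were chr6:129645001-133855000 and chr6:129590001-133840000, at CT18 chr6:129884001-133722000 and chr6:129732001-132942000, and at CT24 chr6:129570001-133868000 and chr6:129852001-133884000. At CT30 the LAD was shorter at its 5′ side in both mice, over chr6:131409001-133021000 and chr6:131376001-133538000. Its 5′ border then lay 221 and 254 kb before the cluster, while in the other 10 libraries it lay between 1746 and 2060 kb before it. The part covered in every library with a LAD there, chr6:131409001-132942000, is 1.53 Mb long and holds 19 of the receptor genes.

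**Figure D3:**
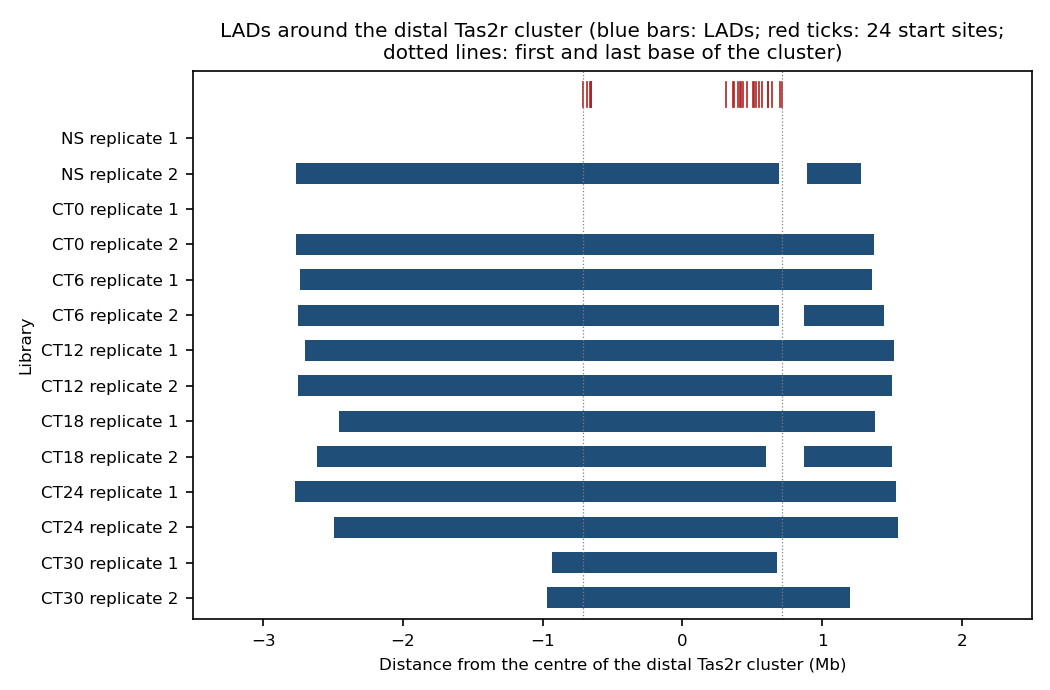
LADs of each library (blue bars) around the distal Tas2r cluster, with the x axis in Mb from the centre of the cluster, red ticks for the 24 start sites and dotted lines at the first and last base of the cluster. NS replicate 1 and CT0 replicate 1 have no bar, both CT30 bars begin less than 1 Mb before the centre, and a gap near the end of the cluster parts the LAD in NS replicate 2, CT6 replicate 2 and CT18 replicate 2.

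A gap or an end near the last genes set the state of Tas2r103 and Tas2r140. In NS replicate 2, CT6 replicate 2 and CT18 replicate 2 a second LAD began 200.0, 176 and 270.0 kb after the first one ended. In CT30 replicate 1 the LAD ended 34.8 kb before the end of the cluster and none followed. EDD, the caller used by the authors, works on bins of fixed size, and the bins of the first 3 of these libraries, as read from the grid of LAD starts, were 4, 11 and 6 kb, at the lower side of a range from 4 to 61 kb. CT0 replicate 2 and CT12 replicate 1, with bins of 4 and 5 kb, had no such gap. The part of bin size in the gap was not tested.

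NS replicate 1 and CT0 replicate 1 had no LAD at the distal cluster. The nearest LAD ended 19.6 and 19.4 Mb before it, at positions 112057000 and 112189000 of chromosome 6, and no LAD followed up to the end of the chromosome. The other 12 libraries had 1 to 4 LADs after these positions, which covered 1.61 to 6.18 Mb. On the whole of chromosome 6 these 2 libraries had 6 and 7 LADs over 32.0 and 29.8 Mb, and the others 9 to 18 LADs over 35.2 to 46.9 Mb. The 2 libraries also had the largest bins of all, 61 and 47 kb, and the fewest LADs in the genome, 86 and 109. CT30 replicate 2 had the next largest bins (46 kb) and 129 LADs, and all 24 distal genes lay in LADs there. The part of bin size and LAD number in the missing LAD was not tested. Each of the 2 libraries has a replicate of its group in which the region was in a LAD, and every value at NS and CT0 rests on this pair of unlike mice.

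LADs covered 0 and 98.6% of the distal cluster in the NS mice and 0 and 100% in the CT0 mice. Both mice of CT12 and both of CT24 had 100%. The CT6 mice had 100% and 98.5%, the CT18 mice 100% and 92.0%, and the CT30 mice 97.6% and 100%. Over the 6 CTs the F ratio of time points against replicates was 0.951, with p = 1 when all 10395 ways of dividing the 12 libraries into pairs were enumerated in an exact permutation test. CT0 replicate 1 at 0 and the other 11 libraries at 92.0% to 100% set both F and p, so this test says nothing about the other time points. With a line on log2 bin size removed from the coverage, the permutation p was 0.0959. That p is approximate and not exact, because the line was fitted to the same values. Without CT0 replicate 2 the F ratio was 247, which rests on CT0 replicate 1 alone at its time point. The number of Tas2r genes in LADs differed by 0.5 between CT0 and NS, far less than the spread between mice, and 2 mice against 2 cannot give an exact two-sided p below 0.333. Without CT0 replicate 2 the difference was -11.5 genes and without NS replicate 1 it was -11.0, so that its sign rests on single mice, whereas without CT0 replicate 1 it was 12.5.

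The 5′ border of the distal LAD stood apart at CT30. In the CT0 mouse with a LAD it was at position 129580001, and none of the 10 libraries of the other groups reached the positions of the CT30 mice. A test over all 12 libraries was not possible, as CT0 replicate 1 had no border. Over the remaining 11 the F ratio of the 5′ border was 91.8, and exact permutation p was 0.0385 for the 5′ and 0.400 for the 3′ border, or 0.0770 and 0.400 after Benjamini-Hochberg adjustment over both borders. The test was added after the borders had been seen. CT30 had bins of 31 and 46 kb, and with a line on log2 bin size removed the F ratio of the 5′ border was 5.26. The permutation p of the 5′ border, then approximate, was almost the same with the line removed as without. Without any 1 of 7 mice (both of CT6, CT12 and CT30, and CT18 replicate 1) the exact p was 0.0584 to 0.0847. The 5′ border at CT30 lay before the receptor genes in both mice, so their state was the same as at CT24 except for Tas2r103 and Tas2r140 in replicate 1. Genes before the cluster did change, at a step where LADs shrank genome-wide, from 631 and 540 Mb at CT24 to 405 and 392 Mb at CT30. Among all genes 2.11% (462 of 21938) were in LADs in both mice at CT24 and in neither at CT30. Position 129570001 is the LAD start of CT24 replicate 1, the earliest of any library. All 26 protein-coding genes between it and the cluster were therefore in a LAD in that mouse by the choice of the stretch. Of these 26, 14 were in LADs in both mice at CT24 and in neither at CT30, a count that cannot be set against the share of all genes. The killer cell lectin-like receptor genes (Klr) of natural killer cells make up 19 of the 26, and 19 and 11 of them were in LADs at CT24 and 0 in either mouse at CT30. The 19 of CT24 replicate 1 were fixed by the choice of the stretch.

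Counted as genes in LADs in both mice of a time point, there were 0 Tas2r genes in the NS and in the CT0 pair of mice. Their number was 24 for CT12 and for CT24, 22 for CT6 and for CT30, and 19 for CT18. In either mouse the number was 23 to 25 in each of the 7 groups. The same counts over all genes are not given here. In a single library 4.02% to 10.4% of all genes were in LADs, and 16.7% were in at least 1 of the 14 libraries. Those shares are other measures and no background for counts in both mice or in either, which are descriptions only. A change of state was counted where a gene was in LADs in both mice at one time point and in neither at the next. At each of the 6 steps 0 Tas2r genes changed. Among all genes 0.702% changed between NS and CT0. Of the later steps, the one that ended at CT6 had 1.08%, the one that ended at CT12 had 0.930% and the one that ended at CT18 had 0.602%. The share was 0.670% in the step up to CT24 and 2.67% in the last step, which ended at CT30. With so few genes changing in the background, a count of 0 among 35 is not a result about the receptors. Libraries with the same replicate number come from different mice. CT6 replicate 1 had 24 genes in LADs that CT0 replicate 1 had not, the entire distal cluster. Tas2r103 and Tas2r140 were in LADs in CT0 replicate 2 and not in CT6 replicate 2.

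The cluster from Tas2r139 to Tas2r126 lay at the edge of a small LAD that was called in 3 libraries. This LAD was chr6:41768001-42204000 in NS replicate 2, chr6:41725001-42140000 in CT12 replicate 1 and chr6:41760001-42180000 in CT18 replicate 2, and so 415 to 436 kb long. In NS replicate 2 and CT18 replicate 2 it took in the start site of Tas2r139, by 63.1 and 39.1 kb. In CT12 replicate 1 it ended 936 bp before that start site, less than 1 bin of 5 kb. Tas2r144, the next receptor gene, was outside by 11.3 kb in NS replicate 2 and by 35.3 kb in CT18 replicate 2. Tas2r143, Tas2r135 and Tas2r126 came no nearer to a LAD than 196, 201 and 231 kb. The 3 libraries had bins of 4, 5 and 6 kb, while CT0 replicate 2, also with bins of 4 kb, had no LAD there, and the part of bin size was not tested. No time point had the small LAD in both mice.

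The remaining receptor genes stayed far from LADs. Distances are signed, above 0 inside a LAD and below 0 outside, and for a cluster they are means over its genes. Tas2r134 lay at a median of -1.74 Mb (from -8.38 to -1.57 over 14 libraries), Tas2r118 at -2.06 Mb (-12.2 to -1.03) and Tas2r119 at -2.12 Mb (-6.83 to -1.24). The lowest value of Tas2r134 was that of NS replicate 1, and the 2 lowest of Tas2r118 were those of NS replicate 1 and CT0 replicate 1, whereas all other libraries had Tas2r118 within 2.29 Mb of a LAD. The cluster with Tas2r138, the mouse counterpart of the receptor for the bitter compound phenylthiocarbamide in people, and Tas2r108, a receptor for denatonium, lay at a median of -3.42 Mb. The genes from Tas2r139 to Tas2r126 lay at a median of -1.63 Mb. The distal cluster lay 0.847 Mb inside a LAD, and it was the only locus with a median above 0.

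**Figure D4:**
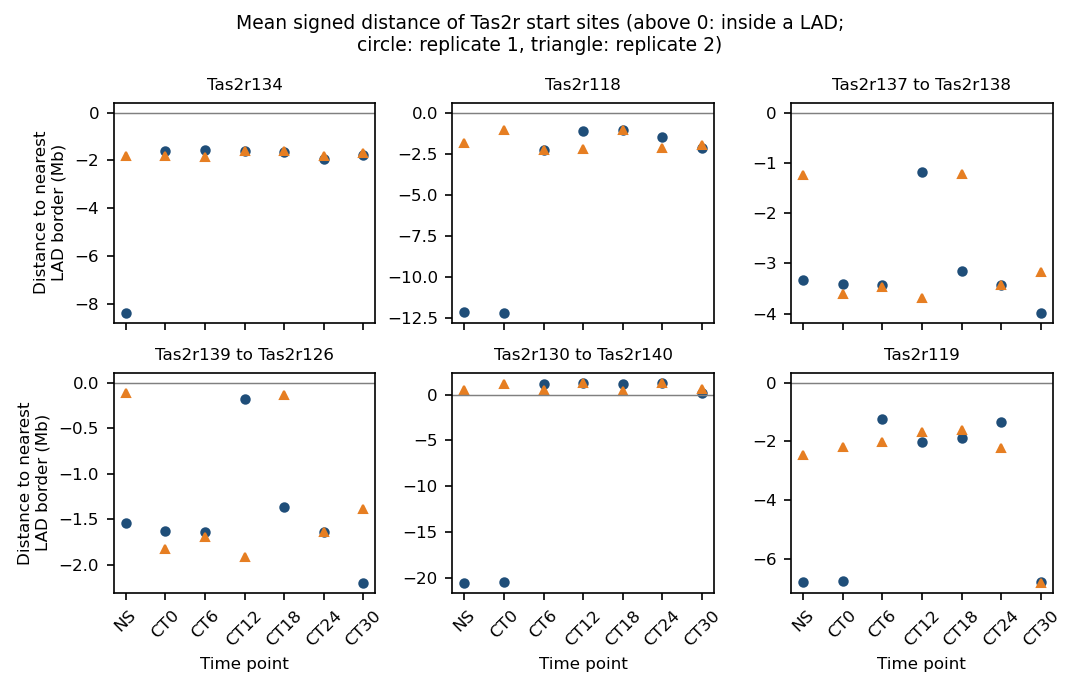
Mean signed distance in Mb from the Tas2r start sites of each locus to the nearest LAD border (y axis, above 0 inside a LAD) by time point (x axis), with circles for replicate 1 and triangles for replicate 2, and y axes that differ between panels. The Tas2r119 panel shows both CT30 mice at -6.79 and -6.83 Mb, with NS replicate 1 and CT0 replicate 1 near them, and the panel of the distal cluster shows values above 0 in the other 12 libraries.

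Distances were compared over the 6 CTs with the same F ratio and exact permutation test. Tas2r119 was farthest from LADs at CT30, at -6.79 and -6.83 Mb in the 2 mice. It lay at -6.75 and -2.20 Mb at CT0, -1.24 and -2.04 at CT6, and -2.02 and -1.67 at CT12. At CT18 it lay at -1.87 and -1.63 Mb and at CT24 at -1.34 and -2.24. The CT30 mice thus stood apart from those of CT6 to CT24 and next to CT0 replicate 1. The F ratio was 4.91 with exact permutation p = 0.0487, and 0.292 after adjustment over the 6 loci, so the difference did not pass. Without CT30 replicate 2 the exact p was 0.128. The other 5 loci had exact permutation p from 0.323 to 0.722, and adjusted p from 0.640 to 0.722. With a line on log2 bin size removed the permutation p, then approximate and not adjusted, was again 0.0487 for Tas2r119. It went from 0.722 to 0.0377 for Tas2r118 and from 0.512 to 0.0551 for the distal cluster. Without CT0 replicate 2 the exact p was 0.0126 for Tas2r118 and 0.0136 for the distal cluster, where CT0 replicate 1, the library with no LAD near either, alone stood for its time point.

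At the distal cluster most neighbouring genes were in LADs, as the receptors were. Within the distal cluster, between Tas2r114 and Tas2r120, lie 6 other protein-coding genes, among them the proline-rich salivary protein genes Prb1, Prpmp5, Prh1 and Prp2, and all 6 were in LADs in the 12 libraries. Of the 16 other genes within the cluster or up to 1 Mb from it, 15 were in a LAD in some library. The next gene before it, 5430401F13Rik, was in LADs in 12 libraries and the next after it, Smim10l1, in 8, the number found for Tas2r103 and Tas2r140. Around the cluster from Tas2r139 to Tas2r126, 6 of 51 neighbours were in a LAD in some library, and the gene before it, Sva, was in one in 3. Of the neighbours of Tas2r134 (7 genes), Tas2r118 (16), the cluster from Tas2r137 to Tas2r138 (32) and Tas2r119 (10), 0 were in a LAD in any library. Among all genes 83.3% were in no LAD in any library and 16.7% in at least 1. Neighbours of a locus share a region and are not independent, so the counts outside the distal cluster are descriptions and no result about the neighbours.

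Sequence was described in windows of 200 kb around the start sites. The distal genes had a median G and C share of 37.0% (36.3% to 39.1%), and 2.03% of all protein-coding genes had a lower share than that median. All genes had a median of 44.2%, with quartiles of 41.3% and 47.4%. Tas2r118 had 39.0%, the 3 genes from Tas2r137 to Tas2r138 a median of 41.1%, the 5 from Tas2r139 to Tas2r126 41.9%, Tas2r134 41.6% and Tas2r119 42.5%. Every Tas2r locus was thus below the median of all genes, and the distal cluster the lowest. Repeats, as lower-case bases of the reference, made up a median of 44.2% of the windows of the distal genes (41.0% to 63.8%) and 30.8% of those of all genes. The highest values belonged to the first 6 genes of the cluster (62.8% to 63.8%) and, outside it, to Tas2r139 with 63.1%, whereas Tas2r119 had 23.1%. The windows of the distal genes held a median of 8 protein-coding start sites, their own included, and those of all genes 4. The windows of neighbouring receptors overlap, so these values are not independent, and no test was made.

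**Figure D5:**
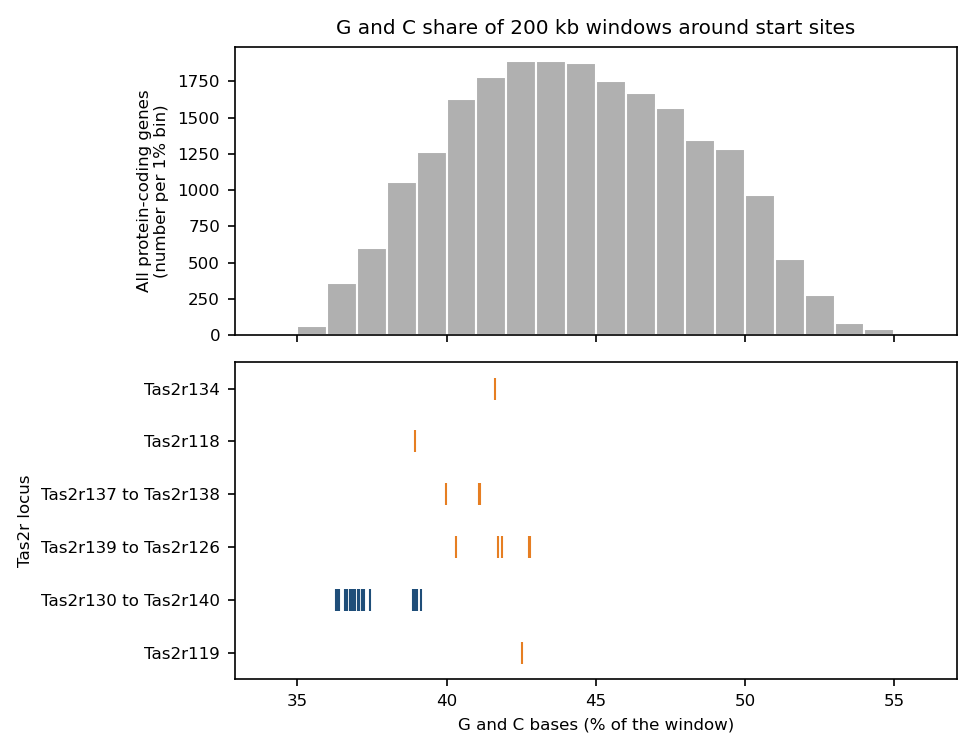
G and C share of the 200 kb around each start site (x axis, percent) for all protein-coding genes (upper panel, number of genes per 1% bin) and for each Tas2r gene by locus (lower panel, one mark per gene). The marks of the distal cluster, from Tas2r130 to Tas2r140, lie between 36.3% and 39.1%, below the median of all genes at 44.2%.

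Coding sequences of the 35 genes were 879 to 1041 bases long. Aligned in pairs, the distal genes shared a median of 55.2% of bases with each other (276 pairs, 48.5% to 86.2%) and 50.8% with the other 11 genes (264 pairs, 44.9% to 55.3%). The closest pairs were Tas2r123 with Tas2r110 at 86.2% and Tas2r117 with Tas2r109 at 77.3%, both within the distal cluster. Tas2r103 and Tas2r140, the genes in LADs in 8 libraries, were closest to each other at 66.8%. Outside the cluster the highest identity was 67.8%, between Tas2r134 of chromosome 2 and Tas2r143 of chromosome 6, neither of which was in a LAD in any library. No pair was above 90% (0 of 595).

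A list held 28 symbols of taste signalling and taste cell identity (other taste receptors, signal transduction and identity factors). All but Skn1a matched, which gave 27 genes. In some library 3 of these were in a LAD (Rgs21, Gnat3 and Adcy8), against 16.7% of all genes, a share near the background and so no result about the list. Rgs21, a regulator of G protein signalling found in taste cells, was in LADs in 13 libraries, all except CT6 replicate 1. Gnat3, gustducin itself, was in LADs in 5 libraries, namely CT0 replicate 2, both mice at CT12, CT18 replicate 1 and CT24 replicate 1. Adcy8, an adenylyl cyclase, was in LADs in 3 libraries, replicate 2 of CT6, CT12 and CT18. The sweet and umami receptor genes Tas1r1, Tas1r2 and Tas1r3, and Plcb2, Itpr3, Trpm5 and Pou2f3, were in LADs in 0 libraries.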

How the data were processed

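LMNB1 ChIP-seq was examined in livers of 14 mice. Per the labels and the study's methods, the authors mapped reads to mm10 with Bowtie2 2.25.0, removed duplicates with Picard, brought each ChIP and its input to equal depth per chromosome by down-sampling, and called LADs for each mouse with EDD at averaged gap penalty and bin size. The deposited files hold the start and end of LADs in base pairs, with no counts or scores. Inputs and RNA-seq were not analysed here.

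Genes were ascribed to LADs by start site (GENCODE vM21, chrM left out), and 0 LADs ended beyond a chromosome of GRCm38.p6. Bin size is the step of the grid of LAD starts. Exact permutation tests (Python 3.11.15, NumPy 2.4.6) compared the 6 CTs by an F ratio over all 10395 divisions of 12 libraries into pairs, with Benjamini-Hochberg adjustment. The F test over 12 libraries and the replicate block were checked on simulated independent normal values. Tests on fewer libraries, the bin size line and values with ties such as those here were not simulated. Coding sequences were aligned with Biopython 1.88. The members, lists, tests and motifs were chosen with earlier results of these data known. All Tas2r genes are accounted for. Other genes named are the fixed taste signalling list, the genes next to each locus, and, chosen after their values were seen, Klr and proline-rich salivary genes. Alternatives were gene body in place of start site, LADs of at least 1 Mb, gaps up to 100 kb closed, pseudogenes included, other cluster distances, bin size, a replicate block and leaving out each library.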

Additional observations from a re-analysis of the deposited data

How the results depend on the processing

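Without each library in turn, the CT0 minus NS difference ranged from -11.5 to 12.5 genes (-11.0 without NS replicate 1), and the distance p, by exact permutation, ranged from 0.0126 to 0.870 for Tas2r118, from 0.0136 to 0.627 for the distal cluster and from 0.0287 to 0.128 for Tas2r119. Over the 11 libraries with a border, it ranged from 0.0207 to 0.0847 for the 5′ border and from 0.187 to 0.600 for the 3′ border. The Tas2r118 p, by approximate permutation, was 0.0377 with the line on log2 bin size removed. The Tas2r119 p, by exact permutation, was 0.340 with LADs of at least 1 Mb only. Counts of genes that changed state were 0 in both mice together. Counts within 1 replicate number compare different mice, so they are differences between mice. In replicate 2 alone they were 3 for the step to CT0, 2 for each of the steps that ended at CT6 and CT12, and 6 for each of those that ended at CT18 and CT24. In replicate 1 alone they were 24 for the step to CT6 and 2 for that to CT30. The cause of these differences was not tested.

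Replicate numbers showed little sign of pairing the samples, though the check cannot exclude it. Over 21 pairs of time points, deviations of same-numbered libraries correlated at -0.158 to 0.485 (median 0.042), and 6 were above 0.1. With a replicate block the exact permutation p was 1 for coverage of the distal cluster, 0.122 for Tas2r119 and 0.542 for the distance of the distal cluster, and the CT0 minus NS difference was 0.5 genes. With the block over CT6 to CT30, where both mice had a border, the exact p was 0.1 for the 5′ and 0.425 for the 3′ border. No other call changed with the block.

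The border alternatives, chosen after the data were seen, left out CT0 replicate 1, which has no border, and the 3′ border p was 0.450 with the bin size line removed. Bin size limits how finely LADs are placed, and no read depth was given. All NS and CT0 values rest on replicates with opposite states at the distal cluster. The differences in share within libraries came from loci chosen with results known, and the 24 distal genes are not independent. With 2 mice a group, a p that misses the threshold does not show that time points are alike.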
